A study of Mus musculus with 24 samples.

Results

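The voltage-gated sodium and calcium channel subunits are the 39 protein-coding genes, of 55385 gene identifiers counted, whose symbols belong to the Scn family (alpha and beta), the Cacna1, Cacna2d and Cacnb families, or Cacng1 to Cacng8. They were chosen by symbol alone, without a cutoff on any measured value, but with earlier results of these data known. Values and counts are given for 37 of them, of which 18 encode a pore-forming subunit (9 sodium channel alpha and 9 calcium channel alpha1 subunits) and 19 an auxiliary subunit (3 sodium channel beta, 4 alpha2delta, 4 calcium channel beta, and 8 gamma subunits or transmembrane AMPA receptor regulatory proteins, TARPs). RNA-Seq counts were available for the hippocampi of 24 mice, 16 to 22 weeks old and of both sexes, in 6 groups of 4. Every mouse carried floxed Tsc1 on both alleles (Tsc1 fl/fl) and received tamoxifen on 4 days. Control mice (Tsc1-Cre-) lacked the Camk2a-CreERT2 transgene and were taken on day 8. Tsc1-Cre+ mice carried it and were taken on day 4, 6, 8 or 13, counted from the first tamoxifen injection, and a last Tsc1-Cre+ group received 10 mg/kg rapamycin daily from day 4 and was taken on day 13 (Tsc1-Cre+-Rap 4). The Camk2a promoter restricts the recombinase to excitatory neurons, so the other cells of the tissue keep Tsc1, and all controls used here were taken on day 8. In whole hippocampus, fewer cells of a type and less RNA per cell cannot be told apart. Mice are named A to D within each group.

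Voltage-gated sodium channels open on depolarization, carry the upstroke of the action potential and inactivate within milliseconds; each has 1 pore-forming alpha subunit, joined by beta subunits that alter gating and anchor the channel in the membrane. Voltage-gated calcium channels are built around an alpha1 pore of the L type, the P/Q, N or R type, or the low-voltage T type, and the high-voltage kinds also need a cytosolic beta and an extracellular alpha2delta subunit to reach the surface. In the hippocampus these channels set spike threshold, bursting and transmitter release. Several TARPs bear gamma subunit names because of their sequence, although they mainly serve AMPA receptors.

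Of the 4 subunits called in any comparison, Scn3a (ENSMUSG00000057182.15) lies at chr2:65457118-65567627 and Scn9a at chr2:66480080-66634962, both on the minus strand of GRCm38. Cacna1g (ENSMUSG00000020866.17) lies at chr11:94408391-94474198 on the minus strand, and Cacna1f (ENSMUSG00000031142.17) at chrX:7607083-7635196 on the plus strand. The genes Scn3a, Scn2a, Scn1a, Scn9a and Scn7a lie in this order on chromosome 2, and the alpha family is alike in coding sequence. Over whole transcripts the overlap was small, since 8.25% of the 50-base windows of Scn3a and 5.32% of those of Scn9a occurred in another gene, compared with 0.0393% for Scn8a and 0% for Cacna1f. How reads matching several genes were counted was not stated, so the Scn1a, Scn2a, Scn3a and Scn9a values carry that uncertainty. It also holds for Cacnb4 (15.4% of windows shared with another gene), Cacna1d (5.90%), Cacng2 (5.86%) and Cacnb2 (4.24%).

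Total counts per mouse ran from 28208561 to 126435936, and both day 13 mice of highest depth (A and B) came from 1 series of animal numbers. Tsc1, the deleted gene, was at 105 ± 3.21 CPM (SD, n = 4; counts scaled to the library total, corrected by the trimmed mean of M values) in control mice and between 57.4 and 81.7 CPM in the 20 Cre+ mice. Each Cre+ group lay below control in every mouse (two-sided exact permutation test, p = 0.0286, the smallest p that 4 against 4 mice allow). Day 13 was the most heterogeneous group. Dentate granule cell markers summed to 298 and 272 CPM in day 13 mice A and B against 481 and 506 in C and D (controls 539 to 587), interneuron markers to 565 in both A and B against 433 and 382 (controls 379 to 413), and immediate early genes to 799, 523, 1241 and 124 in A to D (controls 186 to 243). Of 6 dentate granule cell markers, 2 were called lower on day 13 against control, by the edgeR rule given below. Of 8 interneuron markers, 1 was called higher. Of all genes, 8.06% were called lower and 8.40% higher. Each sum can therefore rest on a few genes. Thalamus markers summed to 301 CPM in control mouse D and 297 in day 8 mouse C, against 73.4 to 182 in the other 22 mice. Control and day 8 mice came from the same 2 animal series, whereas for the other groups series and group cannot be told apart.

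In control hippocampus, the sodium channel beta subunits Scn2b and Scn3b had the highest levels of the 37 subunits per kilobase of exon, at 60.7 ± 3.08 and 51.1 ± 3.96 CPM per kilobase (SD, n = 4). Scn2a (48.9), the R-type channel gene Cacna1e (44.4) and Scn8a (42.7) came next, with mouse ranges that overlapped from 1 to the next, and the TARP gene Cacng8 followed clear of them at 34.0 CPM per kilobase. Scn3a, which codes for a sodium channel best known from the embryonic brain, was at 10.5 and Scn9a, best known from sensory neurons, at 0.767. The L-type gene Cacna1f, the calcium channel of photoreceptor synapses, was at 0.199 CPM per kilobase and so rested on 73 to 139 counts per control mouse. Scn10a, Scn11a and Scn4a, known from sensory neurons and skeletal muscle, and Cacng1, the skeletal muscle gamma subunit, had at most 20 counts in any mouse.

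**Figure D1:**
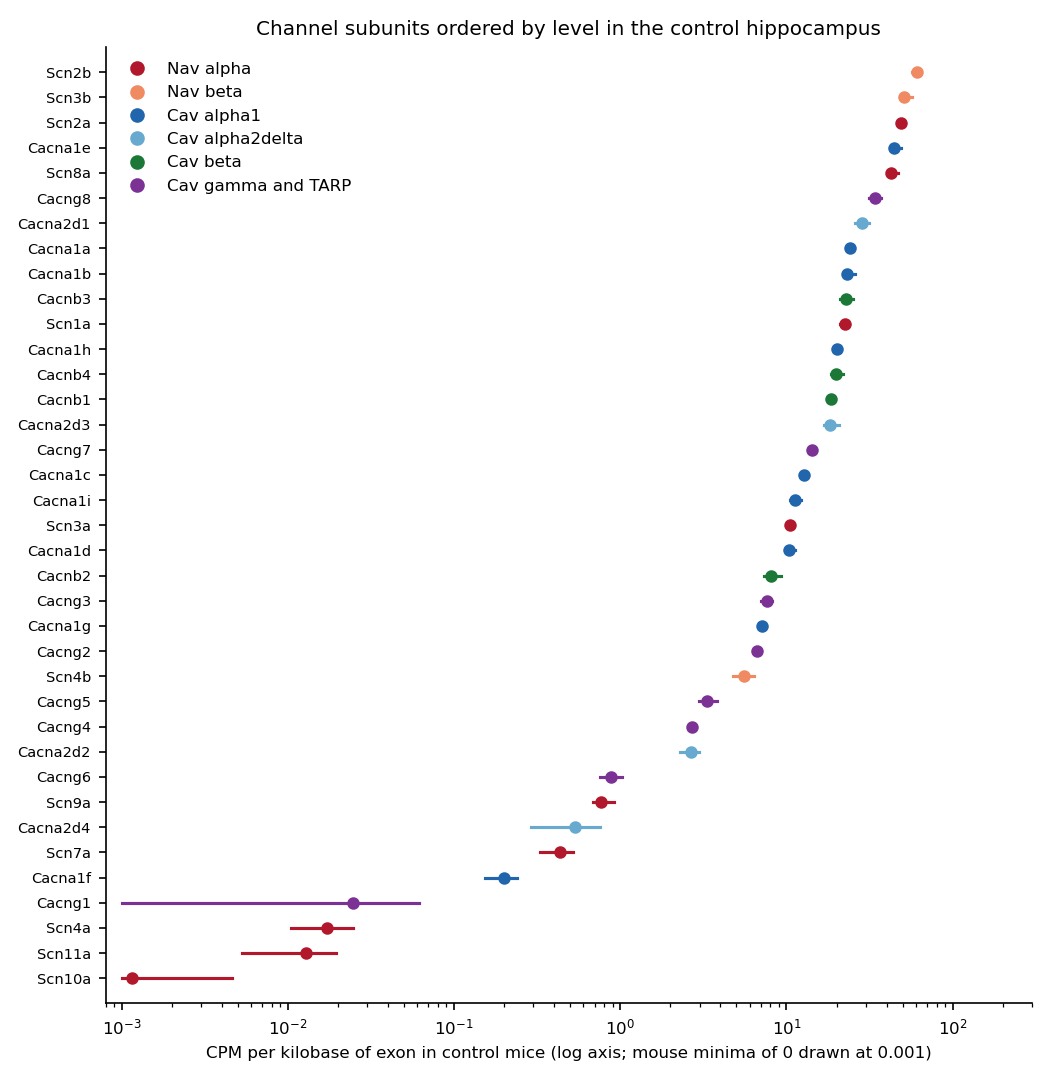
Level of each of the 37 subunits in the 4 control mice, in CPM per kilobase of exon on a log axis (point, mean; line, lowest to highest mouse), colored by role. Scn2b and Scn3b hold the top 2 places, at 60.7 and 51.1, and the 4 genes at the bottom lie below 0.03.

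To find which subunits moved with time after Tsc1 deletion, each Cre+ group was compared with control. Throughout, a subunit is called as risen or fallen when the edgeR quasi-likelihood test gave an adjusted p (Benjamini-Hochberg over all genes tested) below 0.05 and an absolute log2 fold change above 0.5. The low-count filter left 34 subunits on day 4 and 33 in each other comparison; Scn10a, Scn11a and Cacng1 were never tested and Scn4a was tested only on day 4. On day 4 edgeR called 0 of 34, beside 0.680% of all genes, and on day 6 it called 0 of 33, beside 1.32%. With adjusted p alone, whatever the size of the change, 1 subunit passed on day 4 (all genes 4.16%) and 4 on day 6 (10.1%). At an unadjusted p below 0.05 the counts were 8 and 11 subunits (18.4% and 24.2% of all genes), and DESeq2 called 0 on either day. On day 8, 1 of 33 rose and 0 fell, beside 3.99% of all genes called, 2.15% higher and 1.84% lower. On day 13, 2 rose and 2 fell, which is 12.1% of the subunits, beside 16.5% of all genes (8.40% higher, 8.06% lower). The share of channel subunits was not above the background. On adjusted p alone, 3 subunits passed on day 8 (all genes 13.3%) and 8 on day 13 (26.9%). Comparisons with control share the same 4 control mice.

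On day 13, 4 of 15 pore-forming subunits (26.7%) were called (2 up, 2 down) and 0 of 18 auxiliary subunits, beside 16.5% of all genes. Without day 13 mice A and B, only Scn9a and Cacna1f kept their calls, both of low level in control (0.767 and 0.199 CPM per kilobase). With the spread estimated from all 24 mice, the auxiliary gene Scn3b was also called. The auxiliary subunits include the TARPs. The median log2 fold change on day 13 was -0.15 for pore-forming and -0.22 for auxiliary subunits, against -0.040 for all genes tested; on day 8 the medians were -0.018 and -0.045, against -0.025. On day 4 they were 0.048 and -0.039, against -0.0047, and on day 6 -0.0047 and -0.021, against -0.018. No test of the contrast between the kinds was made, since members of a family are not replicates. Over all 6 groups, the edgeR F test on 24 mice gave an adjusted p below 0.05 for 7 of 16 pore-forming and 4 of 18 auxiliary subunits, 11 of 34 or 32.4% in all, beside 41.9% of all genes. These were Scn3a, Scn8a, Scn9a, Cacna1d, Cacna1e, Cacna1f, Cacna1g, Cacna2d3, Cacnb1, Cacnb2 and Cacng4.

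**Figure D2:**
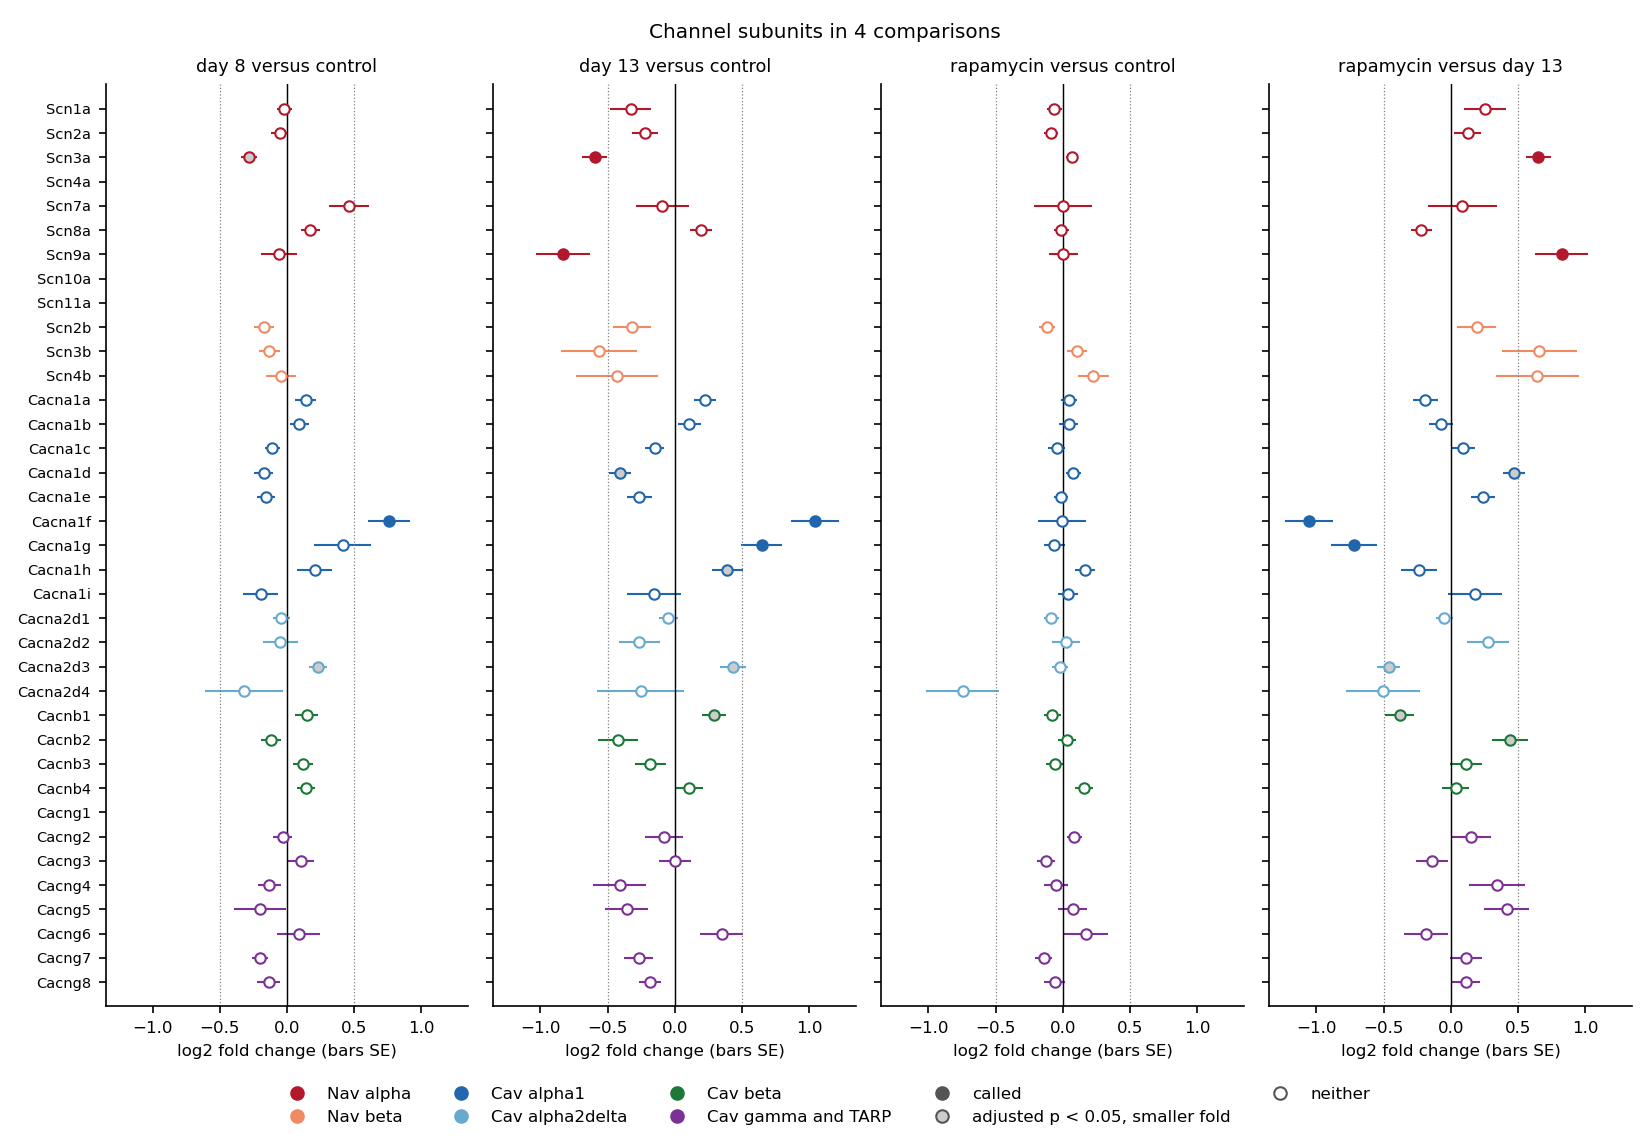
Log2 fold change (point) with its SE (bar) for each subunit reported and tested in 4 comparisons of 4 against 4 mice, colored by role, with dotted lines at 0.5 in each direction (filled, called; grey, adjusted p alone; open, neither). On day 13 the called subunits run from -0.83 (Scn9a) to 1.04 (Cacna1f), and in the rapamycin group no subunit was called against control.

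Among sodium channel alpha subunits, Scn3a and Scn9a fell by day 13, and the 3 abundant neuronal members were not called. Scn3a was at 132, 130, 129 and 131 CPM in control mice A to D and at 85.1, 74.3, 92.0 and 98.7 CPM on day 13, so every day 13 mouse lay below every control (log2 fold change -0.60, SE 0.0925, edgeR adjusted p = 0.00236). It was at 108, 98.9, 107 and 121 CPM on day 8, again below every control, a change of -0.28 that passed on adjusted p (0.0126) but not on size. On day 4 it was at 129, 135, 128 and 122 CPM and on day 6 at 131, 118, 120 and 118 CPM, without passing the test. Without day 13 mice A and B the change was -0.46 (adjusted p = 0.000491), below the size needed for a call.

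Scn9a was at 9.08, 8.71, 11.7 and 9.72 CPM in control mice and at 5.57, 3.68, 6.14 and 7.05 CPM on day 13. The groups did not overlap (log2 fold change -0.83, SE 0.201, edgeR adjusted p = 0.0154), and the change stood at -0.58 without mice A and B (adjusted p = 0.0218). It lost its call without control mouse C, which was the highest control (log2 fold change -0.73, adjusted p = 0.0513). On day 4 Scn9a was at 10.6, 8.13, 8.28 and 8.77 CPM and on day 6 at 7.63, 7.81, 7.28 and 9.62, both overlapping with control. On day 8 it was at 8.86, 8.59, 12.1 and 8.49 CPM, with mouse C, the mouse of high thalamus markers, above the other 3. Exons of Scn9a overlap those of an antisense gene, Gm13629, which had 104 to 163 counts in control and 83 to 134 on day 13 beside 495 to 744 and 216 to 431 for Scn9a; whether strand was used in counting was not stated.

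Scn8a, the channel of nodes and axon initial segments, was at 739, 656, 648 and 648 CPM in control and at 763, 719, 862 and 780 CPM on day 13. These ranges overlap, the change of 0.20 (SE 0.0819) had an adjusted p of 0.102 in edgeR, and the gene passed the 6-group F test (adjusted p = 0.0064). Scn2a changed by -0.22 on day 13 (adjusted p = 0.108) and Scn1a, the main alpha subunit of fast-spiking interneurons, by -0.33 (adjusted p = 0.141), with day 13 mouse B lowest in both, at 475 and 142 CPM. Scn2a was at 595 to 652 CPM in control and at 498, 475, 621 and 566 on day 13, so that mouse C lay within the control range, and Scn1a was at 233 to 266 CPM in control and 199, 142, 253 and 215 on day 13. Scn7a, a sodium-sensing relative of the voltage-gated channels, changed by -0.094 on day 13 and stood at 4.03 to 4.95 CPM on day 8, above every control (2.40 to 3.81), with an adjusted p of 0.0642.

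Scn2b, Scn3b and Scn4b had lower means on day 13 than in control, none of them called. Scn3b, the beta3 subunit, was at 311, 276, 264 and 266 CPM in control and at 130, 105, 257 and 272 CPM on day 13. Mice A and B lay far below the controls, mouse C just below them and mouse D among them. Mice A and B are those with low dentate granule cell marker sums and high interneuron marker sums, although most markers of either list were not called. The part of these in the value was not tested. Its change was -0.56 (SE 0.283, adjusted p = 0.164), and -0.083 without A and B. When the spread was estimated from all 24 mice, edgeR called Scn3b on day 13 (-0.55, adjusted p = 0.0243). Scn4b, a beta subunit linked to resurgent current, was at 27.0, 8.41, 26.8 and 20.5 CPM on day 13, with mouse B far below the other 3. Scn2b, which like beta4 is joined to the alpha subunit by a disulfide bond, was at 266 to 301 CPM in control and 211, 172, 282 and 253 on day 13 (-0.32, adjusted p = 0.123).

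**Figure D3:**
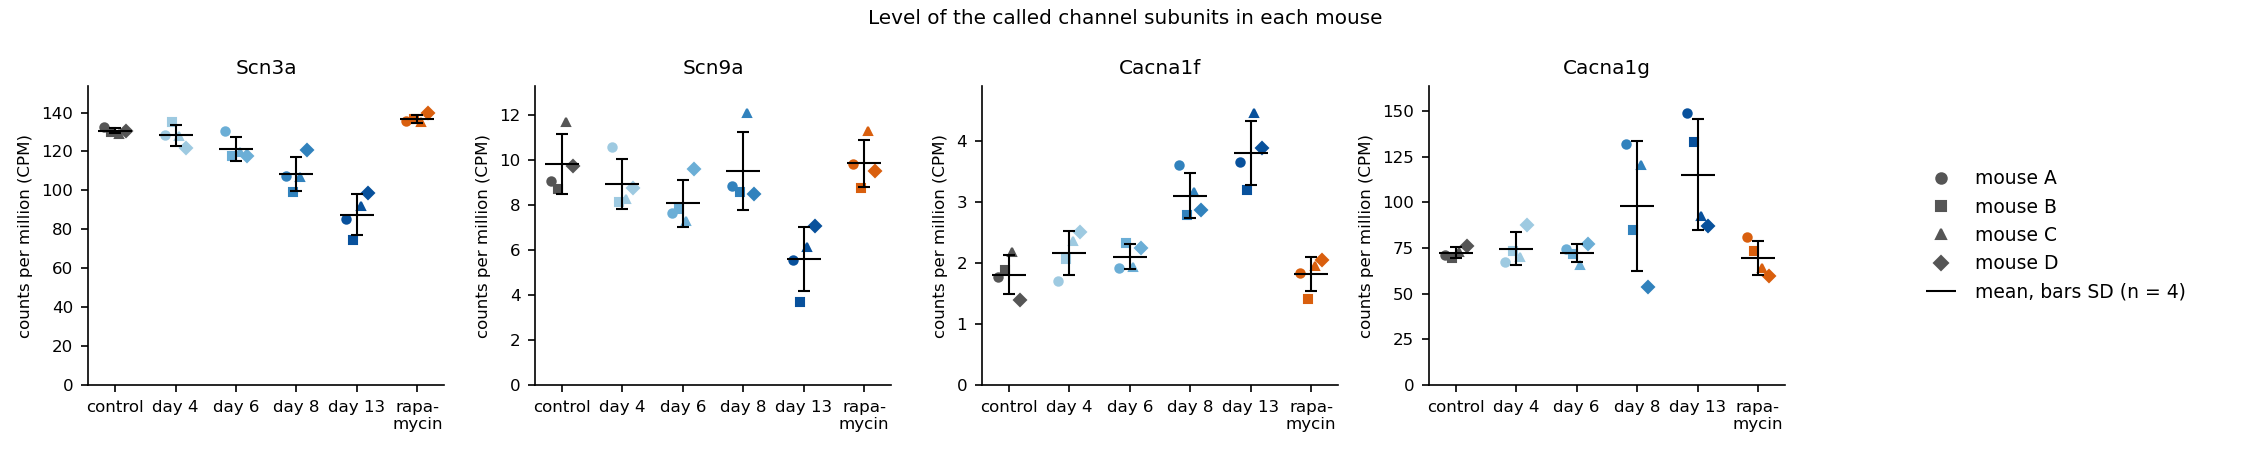
CPM of the 4 subunits called in any comparison, for each mouse of the 6 groups (symbols, mice A to D; bar, mean with SD, n = 4). Scn3a and Scn9a are lowest on day 13 and Cacna1f and Cacna1g have their highest means there. The rapamycin mice lie among or near the controls, for Scn3a above all of them.

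Within the alpha subunits, Scn8a stood higher relative to Scn2a and to Scn3a on day 13 than in control, although neither Scn8a nor Scn2a was called. Relative to Scn2a, Scn8a stood at 0.838 to 0.916 per kilobase in control, 0.883 to 0.925 on day 4, 0.943 to 1.01 on day 6, 0.954 to 1.07 on day 8, 1.11 to 1.24 on day 13 and 0.825 to 0.965 with rapamycin. On days 6, 8 and 13 every mouse was above every control, as were 3 of the 4 rapamycin mice. The ratio of Scn8a to Scn3a was 3.92 to 4.41 in control and 6.25 to 7.65 on day 13. These ratios were picked after the single values were known and were not tested. The share of other gene pairs that separate in this way is not given here.

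**Figure D4:**
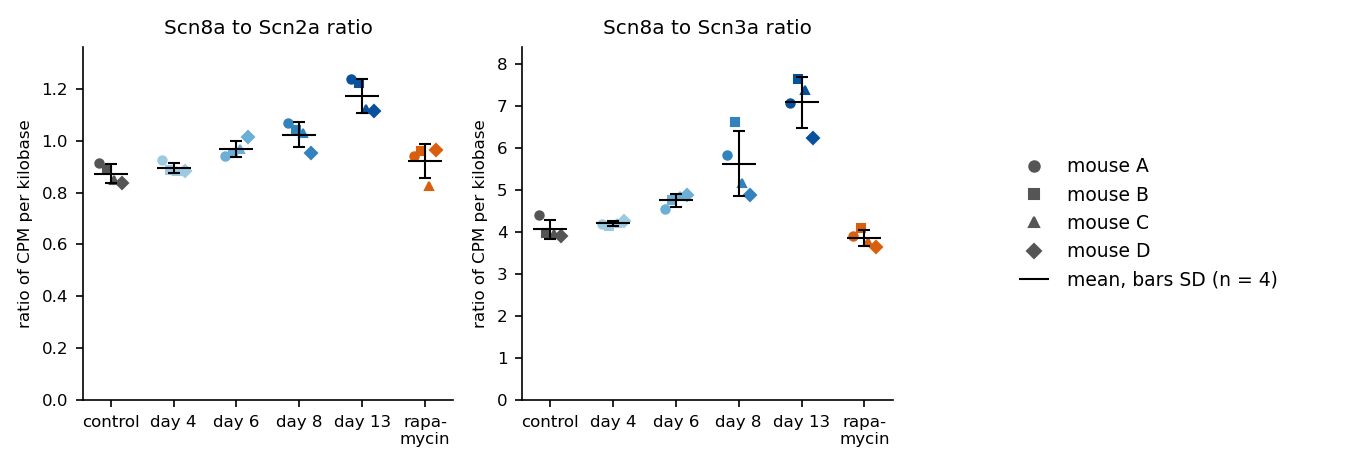
Ratios of levels per kilobase in each mouse (symbols, mice A to D; bar, mean with SD, n = 4): Scn8a to Scn2a and Scn8a to Scn3a. The 4 day 13 mice lie above all controls in both panels.

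Among calcium channel alpha1 subunits, Cacna1f and the T-type gene Cacna1g rose, and the other L-type and high-voltage genes were not called. Cacna1f was at 1.78, 1.89, 2.19 and 1.40 CPM in control, at 3.61, 2.78, 3.17 and 2.87 on day 8, and at 3.66, 3.20, 4.46 and 3.88 on day 13. All mice of both later groups were above all controls, whereas the day 4 values (1.70, 2.06, 2.36 and 2.52 CPM) and day 6 values (1.92, 2.32, 1.93 and 2.25 CPM) overlapped with them. The log2 fold change was 0.76 on day 8 (SE 0.159, edgeR adjusted p = 0.0110) and 1.04 on day 13 (SE 0.178, adjusted p = 0.00359), and in both comparisons the call held in each of the 8 fits that left out 1 mouse. It remained among the least abundant subunits tested, at 0.418 CPM per kilobase on day 13. Cacna1f lies on the X chromosome, and the sex of each mouse was not examined.

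Promoter sequence was at hand from RefSeq (GRCm38.p6) for 29 of the 37 subunits, and for 2 of the 4 called ones, Cacna1f, which rose, and Scn9a, which fell. The 250 bases before the annotated start of each are printed 5′ to 3′, with capitals for a match to any of 6 searched motifs.
Cacna1f (chrX:7606853-7607102, plus strand): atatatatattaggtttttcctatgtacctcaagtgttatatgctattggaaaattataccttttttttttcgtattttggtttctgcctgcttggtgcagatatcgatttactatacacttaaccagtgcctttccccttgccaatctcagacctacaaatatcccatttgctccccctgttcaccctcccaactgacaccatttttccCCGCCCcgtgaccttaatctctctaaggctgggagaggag
Scn9a (chr2:66634963-66635212, minus strand): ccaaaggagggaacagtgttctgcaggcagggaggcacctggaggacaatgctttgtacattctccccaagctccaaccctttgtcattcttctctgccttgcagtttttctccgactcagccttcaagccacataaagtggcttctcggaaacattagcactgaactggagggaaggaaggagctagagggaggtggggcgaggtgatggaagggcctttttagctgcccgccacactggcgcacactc
Cacna1f held 1 Sp1 box (GGGCGG on the minus strand) and Scn9a held none of the motifs, which were the cAMP response element (TGACGTCA), AP-1 (TGANTCA), CLEAR-type E-box (CACGTG), EGR (GCGTGGGCG), Sp1 (GGGCGG) and TATA box (TATAAA), searched on both strands. Of all 32851 promoter windows, 32.7% held an Sp1 box, as did 14 of the 40 windows of subunits. The 2 windows had a GC content of 41.6% and 54.4%, beside a median of 52.4% over all windows.

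Cacna1g, which codes for the T-type channel Cav3.1, was at 71.2, 69.8, 72.9 and 76.3 CPM in control and at 149, 133, 92.4 and 87.0 CPM on day 13. The 4 day 13 mice were above the controls, A and B more so than C and D. Its change was 0.65 (SE 0.155, edgeR adjusted p = 0.0147) and 0.30 without A and B (adjusted p = 0.00661). It was at 67.5, 73.2, 69.96 and 87.8 CPM on day 4 and at 74.6, 71.9, 65.9 and 77.4 on day 6, overlapping with control. On day 8 the values were 132, 85.2, 121 and 53.7 CPM, with 3 mice above the controls and mouse D below them (log2 fold change 0.42, adjusted p = 0.221); without mouse D the change was 0.62 (adjusted p = 0.00867). Day 13 mice A and B were those with high interneuron marker sums, although most of these markers were not called. Day 8 mice A and C, both high in Cacna1g, had thalamus marker sums of 91.9 and 297 CPM. The part of either was not tested.

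The other T-type genes did not share one course. Cacna1h (Cav3.2) was at 186 to 207 CPM in control and at 301, 273, 196 and 274 on day 13, a change of 0.39 that passed on adjusted p alone (0.032). Its change was 0.27 on day 4 (adjusted p = 0.0312), 0.095 on day 6 (adjusted p = 0.171) and 0.21 on day 8 (adjusted p = 0.327), overlapping with control on the last 2 days. Cacna1i (Cav3.3) was at 104 to 120 CPM in control and at 140, 72.5, 117 and 74.6 on day 13, on both sides of the controls. Of the L-type genes common in neurons, Cacna1d (Cav1.3) was at 141, 126, 123 and 129 CPM in control and 95.9, 90.2, 101 and 110 on day 13, below every control, with a change of -0.41 (adjusted p = 0.00788), and Cacna1c (Cav1.2) changed by -0.15 (adjusted p = 0.135). Exons of Cacna1d, Cacna1h and Cacna1a overlap those of genes on the opposite strand (Chdh, Tpsg1 and Gm16183). The same holds for Cacnb1 (Gm11629), Cacnb2, Cacnb4, Cacna2d2 and Cacng2. Cacna1a, the P/Q-type pore, changed by 0.18 on day 6 (adjusted p = 0.0264) and 0.22 on day 13 (adjusted p = 0.0731), and the N-type gene Cacna1b by 0.11 on day 13 (adjusted p = 0.375). Cacna1e, the most abundant alpha1 subunit, changed by -0.26 (adjusted p = 0.0629). Cacna1a stood at 293 to 357 CPM on day 13, above every control (263 to 292), and at 302 to 335 on day 6, again above every control. It was already above every control on day 4, at 297 to 315 CPM, without passing (0.15, edgeR adjusted p = 0.0673). On day 8 it was at 258 to 338 CPM, overlapping with control, with mouse C below every control.

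Of the 15 tested auxiliary subunits of calcium channels and TARPs, none was called on any day. Of all genes, 0.680%, 1.32%, 3.99% and 16.5% were called on days 4, 6, 8 and 13. Cacna2d3, an alpha2delta subunit, passed on adjusted p alone on days 8 and 13. It was at 180, 150, 160 and 147 CPM in control, at 197, 186, 193 and 180 on day 8 and at 236, 247, 199 and 189 on day 13, above every control on both days. Its change was 0.23 on day 8 (SE 0.0661, edgeR adjusted p = 0.041) and 0.43 on day 13 (SE 0.0977, adjusted p = 0.0118). Cacna2d1, the most abundant alpha2delta subunit and a binding site of gabapentin, changed by -0.048 on day 13, and Cacna2d2 and Cacna2d4 by -0.26 and -0.25, without passing.

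Cytosolic beta subunits went in both directions. Cacnb1 was at 84.4, 80.3, 88.7 and 81.2 CPM in control and at 118, 94.5, 111 and 91.8 on day 13 (log2 fold change 0.29, adjusted p = 0.041). Its change was 0.14 on day 6 (adjusted p = 0.0326). On day 8 it was at 103, 106, 83.9 and 81.2 CPM, overlapping with control, and did not pass. Cacnb2 was at 122, 97.8, 97.1 and 110 CPM in control and at 66.8, 67.9, 102 and 85.8 on day 13, with A and B lowest (-0.42, adjusted p = 0.0578). Cacnb3 and Cacnb4 changed by -0.18 and 0.11 and did not pass. Among gamma subunits and TARPs, 5 of 7 had a negative change on day 13, ranging from -0.41 (Cacng4) to 0.35 (Cacng6), with no passed test. Cacng3 was at 19.5 to 22.6 CPM in control and 18.1 to 24.5 on day 13, a change of 0.0031. Cacng5 and Cacng7 passed on adjusted p on day 6 (-0.46, adjusted p = 0.00711, and -0.19, adjusted p = 0.0107). Cacng8 and Cacng2, the main hippocampal TARP and the founding member stargazin, changed by -0.18 and -0.081 on day 13. Cacng7, a TARP of the type II class, was at 34.3 to 35.6 CPM in control, 30.0 to 31.1 on day 6, 27.6 to 32.1 on day 8 and 23.9 to 33.7 on day 13. It lay below every control in each mouse of these 3 groups, and passed on adjusted p on day 6 alone (adjusted p of 0.0528 on day 8 and 0.0875 on day 13).

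Levels per kilobase were also summed over each calcium channel role, with the TARPs, which mainly serve AMPA receptors, counted in the gamma role. The TARP gene Cacng8 made up 48.9% of the gamma and TARP sum in control. The gamma subunit and TARP sum was 67.6 to 72.7 CPM per kilobase in control and 55.6 to 67.5 on day 13. The highest day 13 mouse (67.53) was barely below the lowest control (67.56). The alpha2delta sum went from 47.9 to 54.4 in control to 52.6 to 58.7, overlapping. The calcium channel alpha1 sum was 148 to 162 in control and 149 to 174 on day 13, and the calcium channel beta sum 66.5 to 71.6 and 59.9 to 77.7, both overlapping. These sums were not tested.

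**Figure D5:**
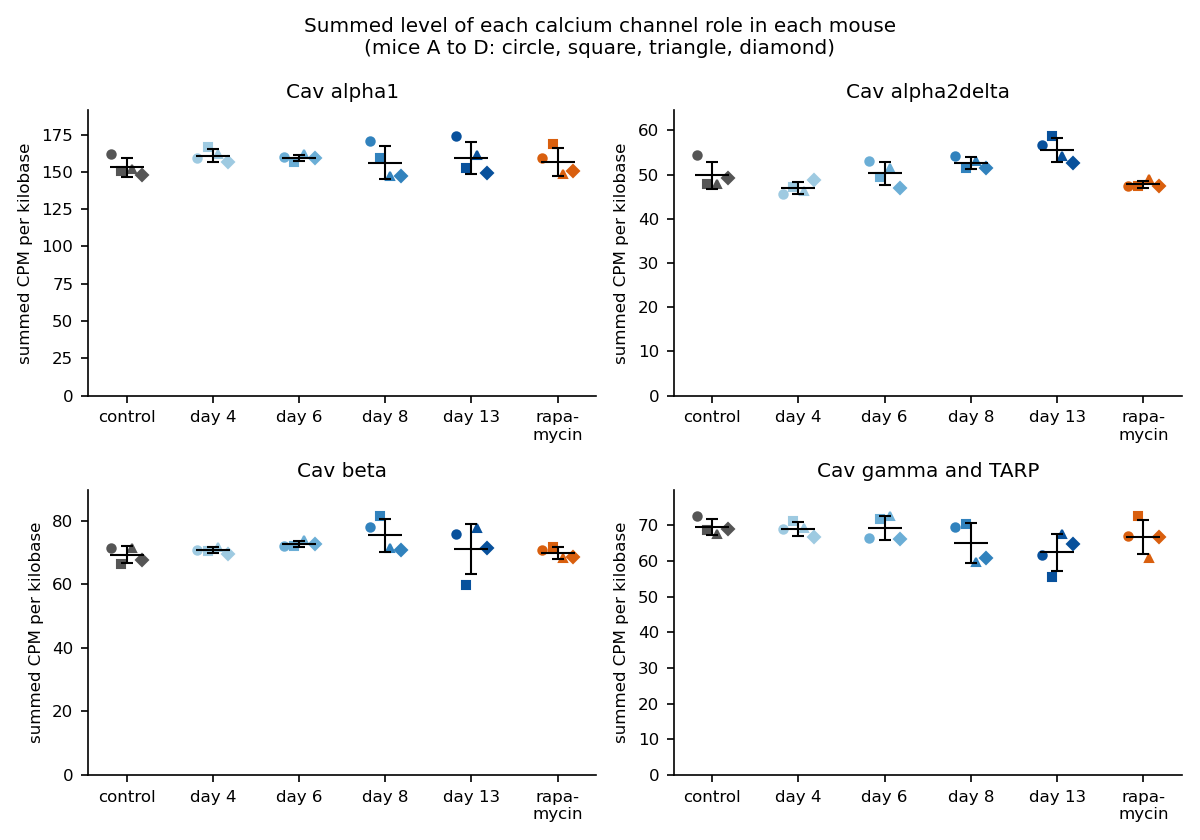
Summed CPM per kilobase of all members of each calcium channel role in each mouse (symbols, mice A to D; bar, mean with SD, n = 4). The gamma and TARP sum on day 13 (55.6 to 67.5) ends just under the lowest control (67.56), while the other day 13 sums overlap with control.

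To see how the subunits stood under mTOR inhibition, rapamycin-treated mice were compared with control and with untreated day 13 mice. Against control, edgeR called 0 of 33 subunits, beside 1.41% of all genes. At an unadjusted p below 0.05 there were 4 (18.1% of all genes), none passed on adjusted p alone (all genes 3.57%), and DESeq2 called 0. The smallest adjusted p was 0.154, for Cacna2d4, a low-level alpha2delta gene, at 2.73, 4.19, 6.2 and 7.21 CPM in control and 2.95, 2.40, 2.48 and 4.28 with rapamycin (log2 fold change -0.75, SE 0.269); without control mouse A the change was -0.96 (adjusted p = 0.045). The 4 subunits called on day 13 changed by 0.068 (Scn3a), 0.0057 (Scn9a), -0.0036 (Cacna1f) and -0.062 (Cacna1g) between rapamycin and control, with SEs of 0.0402, 0.111, 0.178 and 0.0786. An adjusted p that misses the threshold does not show equal levels, and SEs of this size leave room for small differences. For Scn3a, each rapamycin mouse (135 to 140 CPM) lay above every control (129 to 132 CPM).

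Against untreated day 13 mice, edgeR called 2 subunits higher and 2 lower with rapamycin, 12.1% of 33 beside 21.1% of all genes (9.94% higher, 11.2% lower). On adjusted p alone 8 passed, beside 30.8% of all genes. These comparisons share the day 13 mice with the comparison of day 13 and control, so their opposite signs are not separate evidence. Scn3a was at 136, 137, 135 and 140 CPM with rapamycin (0.65, SE 0.0947, edgeR adjusted p = 0.00133) and Scn9a at 9.82, 8.76, 11.3 and 9.52 (0.83, SE 0.196, adjusted p = 0.0115), both above every day 13 mouse. Cacna1f was at 1.84, 1.42, 1.96 and 2.05 CPM (-1.05, SE 0.179, adjusted p = 0.00255) and Cacna1g at 81.0, 73.4, 64.2 and 59.8 (-0.72, SE 0.171, adjusted p = 0.0117), both below every day 13 mouse. Cacna1d, Cacna2d3, Cacnb1 and Cacnb2 passed on adjusted p alone, at 0.47, -0.46, -0.38 and 0.44. Without day 13 mice A and B the change of Cacna1g was -0.36 (adjusted p = 0.0355). Rapamycin and untreated day 13 mice came from different animal series, which cannot be told apart from treatment.

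Between day 13 and day 8, edgeR called 0 of 33 subunits beside 0% of all genes, with 6 subunits at an unadjusted p below 0.05 (14.1% of all genes). Scn9a had the smallest p among them (log2 fold change -0.78, SE 0.215, edgeR adjusted p = 0.303). The 4 day 13 mice lay below all day 8 mice for Scn9a, Scn7a and Scn3a. For Scn3a the highest day 13 mouse was at 98.7 CPM and the lowest day 8 mouse at 98.9. The share of all genes that separate in this way is not given here, so no change is read from it. DESeq2 called Scn9a (-0.77, adjusted p = 0.0438), as did edgeR with the spread from all 24 mice (-0.78, adjusted p = 0.00609).

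For proteins that hold or regulate these channels, the RNA of 36 companion genes was read in 3 lists, and protein was not measured. No companion was called on day 4, 6 or 8 or between rapamycin and control, and on day 13 5 rose and 2 fell among 35 tested, beside 8.40% of all genes called higher and 8.06% lower. All 5 that rose were among 16 calcium channel partners. Gem, a small GTP-binding protein known to hold back calcium channels, was at 1.32 to 1.5 CPM in control and at 14.3, 5.41, 4.46 and 2.64 on day 13 (2.23, SE 0.452, edgeR adjusted p = 0.00737). Stac, an adaptor that slows calcium channel inactivation, was at 5.73 to 6.82 CPM in control and 14, 19.3, 12.2 and 8.5 on day 13 (1.08, adjusted p = 0.00589), and Rrad, a relative of Gem, rose by 0.88 (adjusted p = 0.0458). The 2 that fell were Cntn2 (-0.57, adjusted p = 0.0461) and Cntnap2 (-0.53, adjusted p = 0.00644), contactin-2 and Caspr2 of the juxtaparanode, among 15 tested sodium channel partners and axon initial segment genes. None of the 4 genes of the sodium leak channel complex was called on day 13. With rapamycin against untreated day 13 mice, 2 companions were higher and 7 lower, beside 9.94% and 11.2% of all genes, and 6 of the 7 were calcium channel partners. The lists were chosen with earlier results known, and no test was made over a list.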

How the data were processed

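Hippocampal RNA of 24 mice was sequenced from stranded total RNA libraries (paired reads). The deposited values are raw counts per gene, which the authors made with cutadapt 1.16.5, STAR 2.7.2b (mm10) and featureCounts 1.6.4 on GENCODE M24. Strand and multimapper settings were not stated. Of the counts from 1 to 20, 62.5 to 65.7% were even, against 49.2 to 52.0% of counts from 100 to 1000; whether both ends of a pair were counted was not stated.

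Symbols, exon lengths and coordinates came from GENCODE M21. Groups were tested in pairs with the quasi-likelihood test of edgeR 4.0.16 (R 4.3.3; filterByExpr, TMM factors, Benjamini-Hochberg adjustment over all genes tested), and over all 24 mice with its F test. The test was checked on counts simulated from the fitted spread. That check does not cover the heterogeneity of day 13 or the animal series. Alternatives were DESeq2 1.42.0, other scaling and filters, and leaving out mice. The 24 mice are separate animals. The letters A to D did not pair the mice. Of the 39 subunits, 2 are not reported here and stand in no count of subunits. The other 37 are accounted for, with values in every mouse for those called in any of 7 comparisons, log2 fold changes for those passing on adjusted p alone, and mainly ranges for the others; per-mouse values of uncalled subunits were added after seeing them. Members and lists were chosen with earlier results of these data known; thinning, and leaving out day 13 mice A and B together, were added after seeing the data.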

Additional observations from a re-analysis of the deposited data

Results flagged for a closer look

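In 15 of 204 sets of 4 mice (7.35%; 34 subunits in 6 groups), 1 mouse stood apart from the other 3 by Dixon's criterion, and chance alone flags about 1 in 20 such sets. In the day 6 group, Scn1a was highest in mouse A at 249 CPM (others 227 to 229), Scn3b was lowest in mouse B at 270 CPM (others 301 to 304), Cacna1a was highest in mouse C at 335 CPM (others 302 to 306), Cacna1d was highest in mouse C at 138 CPM (others 130 to 131), Cacnb4 was lowest in mouse D at 169 CPM (others 180 to 181), Cacng2 was highest in mouse A at 36.7 CPM (others 34.8 to 34.9), Cacng4 was lowest in mouse B at 8.59 CPM (others 9.92 to 10.1). In the day 8 group, Scn1a was highest in mouse B at 266 CPM (others 244 to 247), Scn9a was highest in mouse C at 12.1 CPM (others 8.49 to 8.86), Cacnb2 was lowest in mouse D at 95.2 CPM (others 100.6 to 101.2), Cacng5 was highest in mouse C at 16.9 CPM (others 8.60 to 9.77), Cacng7 was lowest in mouse C at 27.6 CPM (others 31.5 to 32.1). In the control group, Scn8a was highest in mouse A at 739 CPM (others 648 to 656), Cacna1b was highest in mouse A at 256 CPM (others 218 to 222). In the day 13 group, Cacna2d4 was highest in mouse D at 6.75 CPM (others 3.32 to 3.68). Day 8 mouse C held 3 of these values (Scn9a, Cacng5 and Cacng7) and was the day 8 mouse with the highest thalamus markers, at 297 CPM against 91.9 to 116; their part in the values was not tested.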

How the results depend on the processing

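Leaving out 1 mouse in turn gave 0 to 0 called subunits on day 4, 0 to 2 on day 6, 1 to 2 on day 8, 3 to 6 on day 13, 0 to 1 for rapamycin against control, 4 to 8 for rapamycin against day 13 and 0 to 0 for day 13 against day 8, and 10 to 16 differing over the 6 groups. The count changed on day 6 without control mouse A (2), control mouse C (1) or day 6 mouse C (1), on day 8 without mouse D (2), for rapamycin against control without control mouse A (1), on day 13 without control mouse C (3), day 13 mouse C (6) or D (5), and for rapamycin against day 13 without day 13 mouse A (5), C (7) or D (8) or rapamycin mouse C (5). The auxiliary median ranged from -0.056 to 0.0047 on day 4 (0.0047 without control mouse A) and 0.024 to 0.17 for rapamycin against day 13 (0.024 without day 13 mouse B). The pore-forming median on day 8 ranged from -0.055 to 0.065 (0.063 without control mouse A, 0.065 without day 8 mouse C) and was 0.051 with edgeR on all 24 mice. With day 13 mice A and B left out, the pore-forming median was -0.073 on day 13 and 0.012 for rapamycin against day 13, the auxiliary median was -0.022 in the latter, and 2 subunits were called on day 13 (Scn9a and Cacna1f). With no fold-change minimum, the counts were 1 on day 4, 4 on day 6, 3 on day 8, 8 on day 13 and 8 for rapamycin against day 13. On day 6, 1 subunit was called without the low-count filter (Cacna2d4) and 1 after thinning (Cacng5). DESeq2, and edgeR on all 24 mice, each called 1 subunit between day 13 and day 8 (Scn9a). With the letter as a replicate block, 1 subunit was called on day 6 (Cacna2d4) and 12 instead of 11 differed over the 6 groups. The counts of the other comparisons were those without the block. Deviations of same-letter mice correlated between -0.43 and 0.21, and in no comparison were all 4 above 0.1. Only between the control and day 8 groups did same-letter mice come from the same animal series. With that series as a block, Cacna1f was again the 1 subunit called on day 8. Tsc1 was below control in every Cre+ group with either scaling (TMM or DESeq2 size factors). No called change reversed its direction under the alternatives run, whereas uncalled changes near 0 did when 1 mouse was left out, such as Cacna1f (-0.11 to 0.10) and Scn9a (-0.069 to 0.10) for rapamycin against control and Scn9a on day 8 (-0.19 to 0.037). At 28208561 counts or more per mouse, Cacna1f still rested on 53 to 375 counts per mouse, and Scn4a, Scn10a, Scn11a and Cacng1, at 20 or fewer, cannot be judged at this depth. The cause of these changes was not tested.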
